A study of Homo sapiens with 24 samples.

Results

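MALAT1 and NEAT1 are long noncoding RNAs that stay in the nucleus and are transcribed from neighbouring genes on human chromosome 11. The peaks described here are those of 7 enhanced crosslinking and immunoprecipitation (eCLIP) lists that lay on the plus strand and overlapped the hg19 interval of MALAT1 (chromosome 11, 65265233 to 65273940, 8708 nt) or of NEAT1 (chromosome 11, 65190269 to 65213011, 22743 nt) by at least 1 nt. There were 1018 of them among 269336 peaks in all, 388 on MALAT1 and 630 on NEAT1, or 0.378% of the series. No measured fold or p-value entered this rule, but the members and lists were chosen with earlier results of these data known. Positions below are counted in nucleotides from the start of each interval, and coordinates are hg19, counted from 1.

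MALAT1 is an abundant component of nuclear speckles, the bodies where splicing factors are stored. NEAT1 is the scaffold on which paraspeckles assemble, and its short isoform shares the 5' end of the long one. RBFOX2 is a splicing regulator that recognises GCAUG elements in RNA. SLBP recognises the hairpin that ends histone mRNAs without a poly(A) tail, and neither RNA is a histone transcript.

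All libraries came from 293T cells, an established human embryonic kidney line, crosslinked on the plate with ultraviolet light. The groups were RBFOX2 (antibody from Bethyl, replicates 1 and 2, 40 U of RNase I), SLBP (antibody from MBL, replicates 1 and 2 at 40 U and replicates 3 and 4 at 5 U) and an isotype control IgG from Thermo Fisher (1 library, 40 U). Each had its own input sample, which carried no antibody and entered only through the authors' fold values. The series lists 24 samples, and the 10 RBFOX2 samples of a separate RNase I series were not analysed here. The peak lists hold binding and not expression, so the cell line's markers were not checked. Nothing in the labels says that replicates were separate cultures, so spreads and p-values describe these libraries. The RBFOX2 lists held 74902 and 97594 peaks, the SLBP lists 10122 to 23034 and the IgG list 28361; read depth is unknown.

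RefSeq lists MALAT1 (gene 378938) with 3 transcripts and NEAT1 (gene 283131) with 2, both as long noncoding RNAs, on GRCh38.p14. RefSeq's 300 nt windows around transcript starts include 2 for MALAT1. The window of an internal MALAT1 start lies inside the gene and holds TGCATG, the DNA form of the RBFOX element with a T before it, 1 time. GCATG without that T was not searched. The stretch below is the only one inside either gene at hand found to hold TGCATG, which is in capitals. It lies at GRCh38.p14 chr11:65498833-65498892 on the plus strand, 1096 to 1155 nt from RefSeq's gene start.
MALAT1: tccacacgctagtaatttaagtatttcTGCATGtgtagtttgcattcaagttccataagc
Of the 35116 RefSeq windows, 9.46% hold TGCATG or its reverse complement CATGCA, which can overlap each other. The match is a description of the sequence and not a site. It was not placed among the peaks, which are on another build, and no window of NEAT1 was at hand.

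NEAT1 carried the higher mean folds in all 7 libraries, and RBFOX2 gave the highest of them. Each value here is the authors' log2 fold of immunoprecipitation over paired input, averaged over the nucleotides that the peaks covered. On NEAT1 the mean log2 fold was 1.25 and 1.54 in RBFOX2 replicates 1 and 2. It was 1.00, 0.90, 0.71 and 1.01 in SLBP replicates 1 to 4 and 0.65 in IgG. The RBFOX2 libraries thus stood above all 4 SLBP libraries and IgG on NEAT1, without overlap.

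On MALAT1 the same mean was 0.40 and 0.05 in RBFOX2 replicates 1 and 2. It was 0.14, 0.25, 0.61 and 0.56 in SLBP replicates 1 to 4 and 0.50 in IgG. The antibodies overlapped on MALAT1, and RBFOX2 replicate 2 had the lowest value of the 7. MALAT1 minus NEAT1 was negative in 7 of 7 libraries, from -1.49 in RBFOX2 replicate 2 to -0.10 in SLBP replicate 3, with a mean of -0.65 ± 0.48 (SD, n = 7; exact sign-flip permutation p = 0.0156, two-sided, the smallest possible; Benjamini-Hochberg adjusted p = 0.0234 over 3 paired tests). These 7 libraries include 3 antibodies and are not replicates of 1 condition. IgG had the second smallest gap, -0.15. By the median over peaks SLBP replicate 3 went the other way, with 0.69 on MALAT1 and 0.66 on NEAT1. The difference in medians averaged -0.62 (exact sign-flip permutation p = 0.0312, two-sided, n = 7).

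RBFOX2 minus SLBP was 0.49 log2 units on NEAT1, with means of 1.40 ± 0.21 (SD, n = 2) in RBFOX2 and 0.91 ± 0.14 (SD, n = 4) in SLBP. The exact permutation test gave p = 0.133 (two-sided, n = 2 and 4), the smallest this design allows, and 0.356 adjusted over the 8 tests of this kind. The difference was 0.27 with touching peaks merged, as an unweighted mean over sites that each took the highest fold of their pieces. It was 0.90 with each list's own median taken off. On MALAT1 the difference was -0.16 (RBFOX2 0.23 ± 0.25, n = 2; SLBP 0.39 ± 0.23, n = 4; SD; exact permutation p = 0.533, two-sided, adjusted p = 0.610), within the spread of the libraries. It was -0.39 with touching peaks merged and -0.46 as a median over peaks. It turned to 0.25 with each list's own median taken off, to 0.034 against SLBP at 40 U only and to 0.014 without RBFOX2 replicate 2. The medians of all peaks were 0.73 and 0.86 in the RBFOX2 lists, 1.57, 1.46, 0.66 and 1.17 in the SLBP lists and 1.31 in the IgG list, so levels set across lists rest on scalings not known to match. Relative to these medians, NEAT1 stood at 0.52 and 0.68 in RBFOX2, between -0.56 and 0.06 in SLBP and at -0.66 in IgG. MALAT1 lay under its list's median in all 7 libraries, by -0.05 in SLBP replicate 3 down to -1.43 in SLBP replicate 1.

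**Figure D1:**
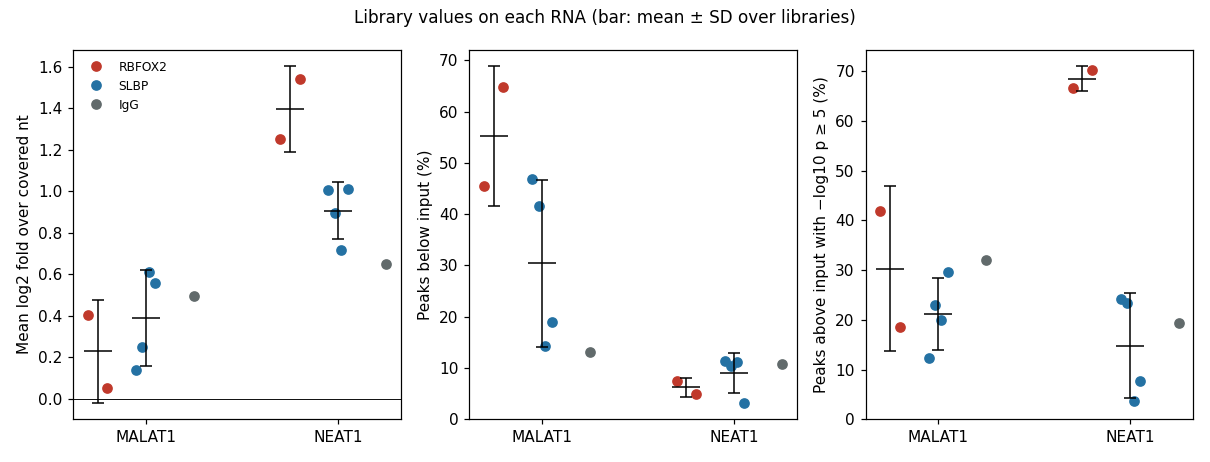
Values of each library on MALAT1 and NEAT1: the mean log2 fold over covered nucleotides (left), the percentage of peaks below input (middle) and the percentage of peaks above input with a −log10 p of at least 5 (right). Points are libraries in the order RBFOX2, SLBP and IgG within each RNA, and bars are the mean ± SD of RBFOX2 (n = 2) and SLBP (n = 4). On NEAT1 the RBFOX2 libraries lie above the others at left (1.25 and 1.54) and at right (66.7% and 70.2%), and on MALAT1 the antibodies overlap.

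Peaks below input were common on MALAT1 in RBFOX2 and rare on NEAT1. On MALAT1, 51 of 112 peaks (45.5%) of RBFOX2 replicate 1 and 35 of 54 (64.8%) of replicate 2 had a log2 fold under 0. In the whole lists the share was 32.6% and 31.0%. The MALAT1 share was 46.9%, 41.7%, 14.3% and 18.9% in SLBP replicates 1 to 4, where all peaks gave 7.02%, 9.45%, 23.4% and 17.0%. It was 13.2% in IgG, where all peaks gave 10.7%. MALAT1 thus held more peaks below input than its list in both RBFOX2 libraries and in the SLBP libraries at 40 U of RNase I, and SLBP replicate 3 held fewer. The difference between the antibodies, 24.7 percentage points, was not separated from the spread (exact two-sided permutation p = 0.267 for 2 against 4 libraries, adjusted p = 0.427 over 8 tests). It was 10.9 points against SLBP at 40 U only, the amount used for RBFOX2, and 15.1 without RBFOX2 replicate 2. On NEAT1 the share was 7.55% and 4.96% in RBFOX2, 3.12% to 11.3% in SLBP and 10.8% in IgG.

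Peaks above input that passed the p limit made up a larger share on each RNA than in the whole list in all 7 libraries, and least so for SLBP replicate 3 on NEAT1. Above input with a −log10 p of at least 5 were 106 of 159 NEAT1 peaks (66.7%) of RBFOX2 replicate 1 and 85 of 121 (70.2%) of replicate 2, where the whole lists gave 10.1% and 9.88%. In SLBP replicates 1 to 4 the NEAT1 share was 24.2%, 23.4%, 3.70% and 7.81%, beside 1.88%, 1.87%, 2.06% and 2.82% of all peaks. In IgG it was 19.4% beside 0.829%. On MALAT1 the share was 42.0% and 18.5% in RBFOX2, 12.2% to 29.7% in SLBP and 32.1% in IgG. The share thus stood far above its list in the control as well, and the lists hold no read counts that would show how many reads stood behind it. On NEAT1, 17 and 12 RBFOX2 peaks were at the lists' ceiling of 400.

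Both RNAs were covered in part. RBFOX2 peaks covered 27.6% and 24.2% of MALAT1, SLBP peaks 18.9% ± 1.67 (SD, n = 4) and the IgG peaks 23.5%. On NEAT1 the coverage was 21.1% and 14.7% in RBFOX2, 12.5% ± 1.58 in SLBP (SD, n = 4) and 17.1% in IgG. RBFOX2 did not overlap SLBP on MALAT1 (difference 6.94 percentage points, exact two-sided permutation p = 0.133 for 2 against 4 libraries, adjusted p = 0.356 over 8 tests) and did on NEAT1. Per kilobase MALAT1 held 12.9 and 6.20 RBFOX2 peaks, 4.02 to 5.63 SLBP peaks and 6.09 IgG peaks. On NEAT1 the values were 6.99 and 5.32, 2.37 to 3.39 and 4.09. Peaks were thus denser on MALAT1 in every library although its mean folds were lower. The number of peaks depends on how sites were split: RBFOX2 replicate 1 had 112 MALAT1 peaks with a median width of 18 nt and replicate 2 had 54 with a median of 40 nt, and merging touching peaks left 40 and 29. On the minus strand of the same intervals all 7 lists held 0 peaks, although RefSeq places the antisense RNA TALAM1 opposite MALAT1.

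Peaks at least 8-fold over input were seen on NEAT1 with RBFOX2 and on neither RNA with SLBP or IgG. A peak was called enriched with a log2 fold of at least 3 and a −log10 p of at least 5. NEAT1 had 12 enriched peaks in RBFOX2 replicate 1 (7.55% of its NEAT1 peaks) and 12 in replicate 2 (9.92%), against 0 in each SLBP library and in IgG. The shares called over the whole lists were 7.95% and 7.66% in RBFOX2, so at this limit the NEAT1 share was near the background and is not a result about NEAT1. Over all peaks SLBP called 1.23%, 1.27%, 1.70% and 2.33%, and IgG 0.180%. The SLBP lists held 54 to 77 NEAT1 peaks and the IgG list 93, where shares this low call few or no peaks. The 0 counts of SLBP and IgG are thus not a result about NEAT1 either. The difference between RBFOX2 and SLBP in this count had the smallest p of the exact permutation test (two-sided p = 0.133 for 2 against 4 libraries). The shares called over the whole lists differ between these antibodies in the same direction. MALAT1 had 0 enriched peaks in all 7 libraries, and its highest RBFOX2 peak, at 2.90, lay just under the limit. On NEAT1 the values next to the limit were 3.001 inside and 2.81 outside in replicate 1, and 3.001 inside and 2.94 outside in replicate 2. With touching peaks merged the RBFOX2 count on NEAT1 averaged 3.5 sites a library. The count also rests on the limit: at a log2 fold of at least 2, RBFOX2 had 40 and 49 peaks on NEAT1 (25.2% and 40.5% of its NEAT1 peaks, beside 9.60% and 9.53% of all peaks). On MALAT1 it had 10 and 6 (8.93% and 11.1%), near the share of all peaks. At the same limit SLBP replicates 1 and 2 had 1 and 5 peaks on NEAT1 (1.61% and 6.49%) and 1 and 2 on MALAT1 (2.04% and 4.17%). SLBP replicates 3 and 4 had 0 on both RNAs. All peaks gave 1.48%, 1.40%, 1.82% and 2.35% in SLBP replicates 1 to 4. The share of SLBP replicate 2 thus also stood above its list on both RNAs, from few peaks. IgG had 0 on both (all peaks: 0.303%). With a −log10 p of at least 10 and a log2 fold of at least 4, a single NEAT1 peak of RBFOX2 replicate 1 passed and none of the other libraries or of MALAT1, where all peaks gave 3.73% and 3.23% in RBFOX2, 1.03%, 1.16%, 1.38% and 2.22% in SLBP and 0.0529% in IgG.

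**Figure D2:**
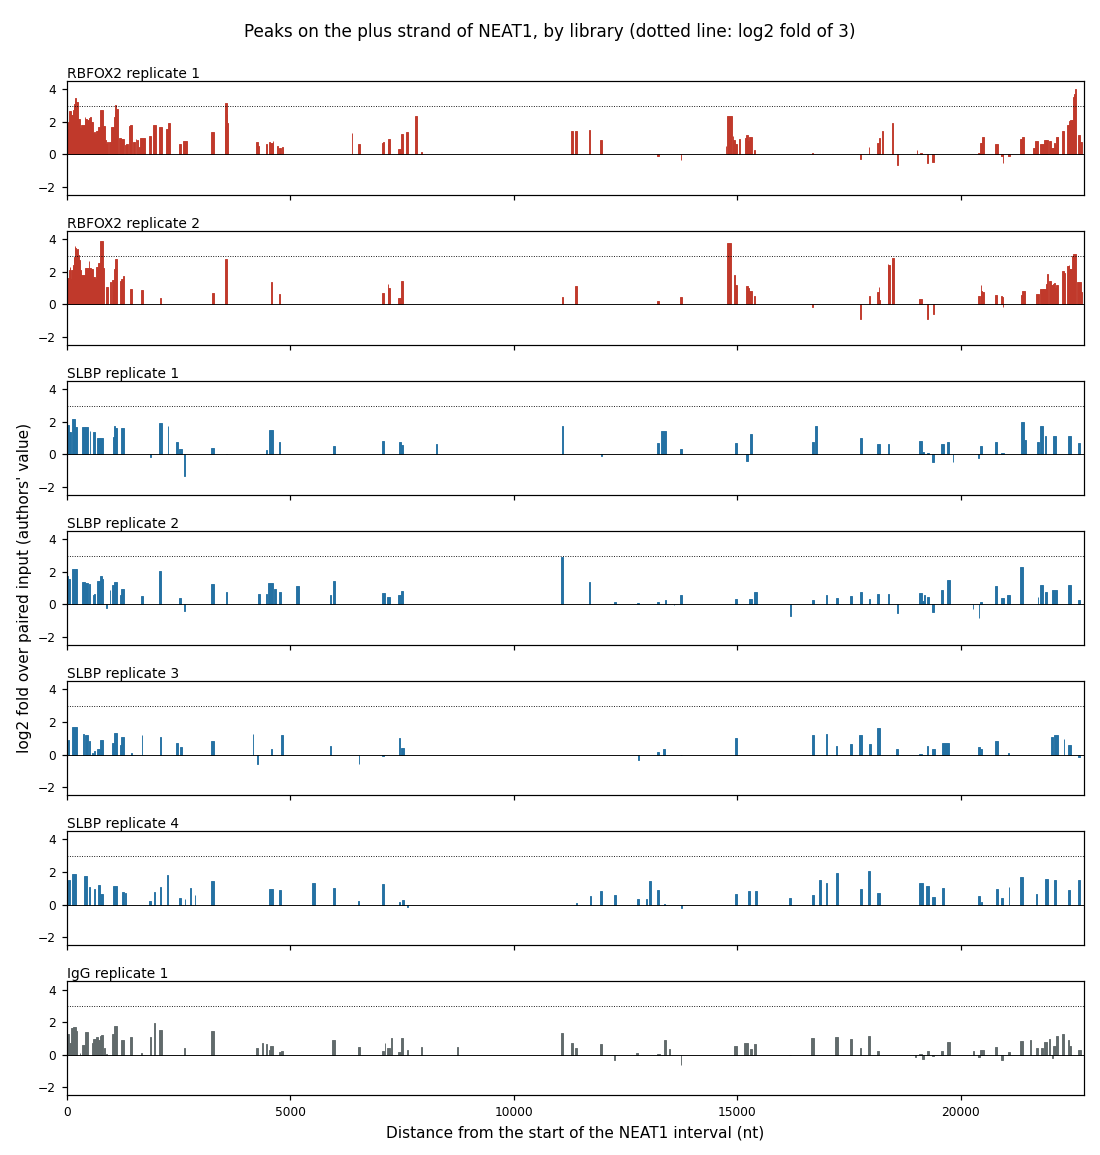
Peaks along NEAT1 in each library, with the distance from the start of the interval in nucleotides on the horizontal axis and the authors' log2 fold over paired input on the vertical axis. Each bar spans 1 peak, with outlines that widen the narrowest ones, and the dotted line marks a log2 fold of 3. RBFOX2 peaks pass the line near both ends and, in replicate 2, at 14779 to 14851 nt, and no SLBP or IgG peak reaches it.

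The enriched RBFOX2 peaks of NEAT1 lay at 7 sites when touching ones were joined over both libraries, 5 of them in the first 4000 nt and 1 at the 3' end. Enriched in both libraries were 73 nt near the 5' end and 62 nt near the 3' end. The 5' site, at 65190443 to 65190515 (175 to 247 nt), reached 3.48 and 3.61 in RBFOX2 replicates 1 and 2. It reached 2.18, 2.20, 1.68 and 1.90 in SLBP replicates 1 to 4 and 1.70 in IgG. All 7 libraries therefore had signal above input there, and both RBFOX2 libraries stood above the other 5 without overlap. These nucleotides were chosen for a high RBFOX2 fold, so this is a description.

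The 3' site, at 65212786 to 65212847 (22518 to 22579 nt), ended 164 nt before the end of the interval. It reached 4.03 in RBFOX2 replicate 1, the highest peak on either RNA, and 3.13 in replicate 2. No SLBP list and no IgG list held a peak on these nucleotides. They lay in a wider stretch, 22426 to 22579 nt, that passed a log2 fold of 2 in both RBFOX2 libraries. All SLBP lists (0.61 to 1.22) and the IgG list (0.56) had a peak in that stretch. The −log10 p was at most 55.7 there in replicate 1 and 32.8 in replicate 2, against the ceiling of 400 at the 5' site in both.

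The other 5 sites passed the limits in 1 RBFOX2 library each, and the second library had a log2 fold above 2 at all of them. At 751 to 822 nt the folds were 2.70 and 3.91 in replicates 1 and 2, with 0.67 to 1.76 in SLBP and 1.20 in IgG. At 1081 to 1113 nt they were 3.03 and 2.80, with 1.16 to 1.76 in SLBP and 1.73 in IgG. At 3548 to 3587 nt they were 3.13 and 2.79, with 0.0025 and 0.79 in SLBP replicates 1 and 2 and no peak in the SLBP libraries at 5 U or in IgG. At 14779 to 14851 nt (65205047 to 65205119) they were 2.36 and 3.75 and at 261 to 277 nt 2.17 and 3.06, and neither place held an SLBP or IgG peak. All 7 lists so had a peak at 3 of the 7 sites, only the RBFOX2 lists at another 3, and the RBFOX2 lists and SLBP replicates 1 and 2 at 3548 to 3587 nt. These counts depend on where the limit cuts the sites. At a log2 fold of 2 in both RBFOX2 libraries, 261 to 277 nt fell within 1 stretch from 99 to 298 nt. All 7 lists had a peak in that stretch, with up to 1.68 to 2.20 in SLBP and 1.70 in IgG. A place without a peak in a shorter list is not shown to lack signal. Counted by peak, 9 of the 12 in replicate 1 (75.0%) shared nucleotides with one that passed the limits in replicate 2. The other way it was 8 of 12 (66.7%). Many of these peaks were touching pieces of the same site. At 163 to 257 nt lay 5 of replicate 1 and 7 of replicate 2, and at 22497 to 22580 nt 5 and 2. The peaks were thus not independent, and no interval is given for these shares. Counted by site, 2 of the 7 were enriched in both libraries.

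**Figure D3:**
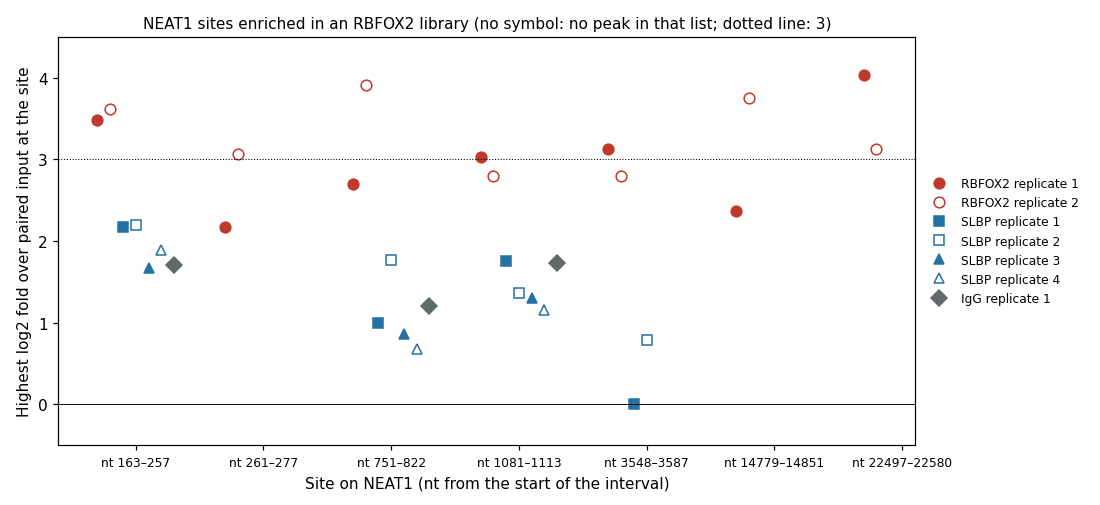
Highest log2 fold over paired input (vertical axis) at the 7 NEAT1 sites enriched in an RBFOX2 library (horizontal axis, positions in nucleotides from the start of the interval), 1 symbol per library; a missing symbol means no peak in that list. Both RBFOX2 libraries lie above 2 at all 7 sites, and SLBP and IgG have no peak at 261 to 277, 14779 to 14851 and 22497 to 22580 nt. All 7 lists had peaks within the wider stretches of 99 to 298 and 22426 to 22579 nt.

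The 5' part of NEAT1 had higher folds than the rest in all 7 libraries, the IgG control included. In the first 4000 nt, known to contain the short isoform, the mean log2 fold over covered nucleotides was 1.69 and 2.12 in RBFOX2, 1.32, 1.30, 0.90 and 1.18 in SLBP replicates 1 to 4 and 1.15 in IgG. In the remaining nucleotides it was 0.93 and 1.18, 0.85, 0.74, 0.61 and 0.94, and 0.47 in the same order. The difference averaged 0.56 ± 0.25 (SD, n = 7; 7 of 7 libraries positive; exact sign-flip permutation p = 0.0156, two-sided, the smallest possible; adjusted p = 0.0234 over 3 paired tests). It was 0.76 and 0.94 in RBFOX2, 0.24 to 0.56 in SLBP and 0.69 in IgG. RBFOX2 exceeded SLBP by 0.46 in this contrast (exact two-sided permutation p = 0.133 for 2 against 4 libraries, the lowest possible), and IgG stood above all 4 SLBP libraries.

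In steps of 1000 nt, the first had the highest mean over libraries in RBFOX2 and in SLBP, but among single libraries only SLBP replicate 1 was highest there. RBFOX2 replicate 1 was highest at 3001 to 4000 nt (2.01), as was IgG (1.44), and RBFOX2 replicate 2 at 14001 to 15000 nt (2.61). RBFOX2 peaks covered 963 and 876 of its nucleotides at a mean log2 fold of 1.98 and 2.35 in replicates 1 and 2. SLBP covered 370 to 510 at 1.56, 1.53, 0.97 and 1.39 in replicates 1 to 4, and IgG 612 at 1.08. Among the 13 steps with at least 50 covered nucleotides in both RBFOX2 libraries, the next by the mean over libraries were 14001 to 15000 nt (2.11 ± 0.71, SD, n = 2), 3001 to 4000 nt (1.88 ± 0.19, SD, n = 2) and the last, 22001 to 22743 nt (1.69 ± 0.21, SD, n = 2). The lowest was 19001 to 20000 nt, at -0.21 and -0.04 in RBFOX2, where SLBP ranged from 0.38 to 1.02 and IgG had 0.16. From 9001 to 11000 nt no list held a peak. The highest SLBP peak of NEAT1 lay just beyond, at 11060 to 11098 nt, with 2.94 in SLBP replicate 2; the values there were 0.45 in RBFOX2 replicate 2, 1.73 in SLBP replicate 1 and 1.35 in IgG, and the other lists had no peak.

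Along MALAT1 the RBFOX2 folds ran in another order. In RBFOX2 the mean folds lay below input from 1001 to 4000 nt in both libraries and above it from 5001 to 7000 nt. From 2001 to 3000 nt the mean log2 fold was -0.44 and -1.35 in RBFOX2 replicates 1 and 2. It was 0.57, 0.36, 0.98 and 0.81 in SLBP replicates 1 to 4 and 0.09 in IgG. The lowest RBFOX2 peak of MALAT1, -2.18 in replicate 2 at 2733 to 2740 nt, lay in this stretch, where SLBP had 0.03 to 0.86.

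From 6001 to 7000 nt the mean was 1.44 and 1.26 in RBFOX2, against 0.06, 0.68, 1.03 and 1.07 in SLBP replicates 1 to 4 and 0.72 in IgG. This was the highest of the 8 steps with peaks in both RBFOX2 libraries and in SLBP replicates 2, 3 and 4, and the second highest in IgG. SLBP replicate 1 was highest at 1001 to 2000 nt (1.33). RBFOX2 peaks covered 576 and 554 nt of the step from 6001 to 7000 nt, against 137 to 190 nt in SLBP and 220 nt in IgG. Places above a log2 fold of 2 with the p limit passed in both RBFOX2 libraries numbered 3 on MALAT1 and 9 on NEAT1. The share of MALAT1 peaks at this limit (8.93% and 11.1%) was near that of all peaks (9.60% and 9.53%), so the places on MALAT1 are given as a description. Those on MALAT1 were 5461 to 5480 nt (mean 2.03 and 2.21 in replicates 1 and 2), 6266 to 6310 nt (2.04 and 2.46) and 6316 to 6405 nt (65271548 to 65271637; 2.21 and 2.37). The SLBP and IgG lists had no peak at the first and second of these, and at the third SLBP had -0.25 to 1.48 and IgG 0.77. The highest RBFOX2 peak of MALAT1, 2.90 at 6548 to 6555 nt in replicate 1, was matched by 0.48 on the same nucleotides in replicate 2. The first 1000 nt of MALAT1 held no peak in any list.

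**Figure D4:**
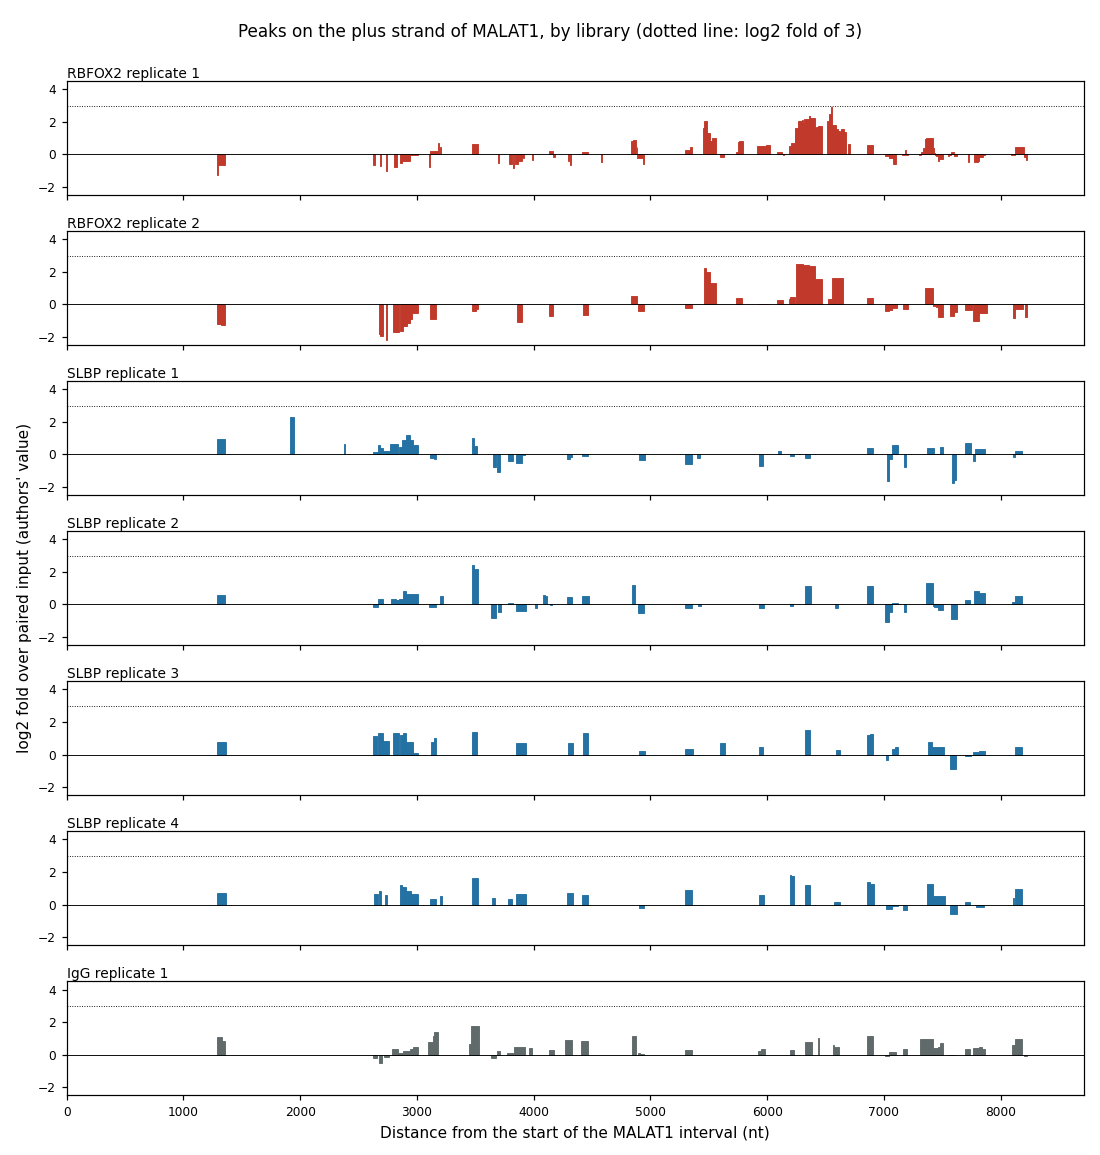
Peaks along MALAT1 in each library, with the distance from the start of the interval in nucleotides on the horizontal axis and the authors' log2 fold over paired input on the vertical axis. Each bar spans 1 peak, with outlines that widen the narrowest ones, and the dotted line marks a log2 fold of 3, which no peak reaches. Both RBFOX2 libraries average below 0 between 2001 and 3000 nt (-0.44 and -1.35) and highest between 6001 and 7000 nt (1.44 and 1.26).

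The first 4000 nt minus the rest of MALAT1 was -0.89 and -1.52 in RBFOX2 replicates 1 and 2. It was 0.49, 0.08, 0.51 and 0.28 in SLBP replicates 1 to 4 and -0.06 in IgG. Both RBFOX2 libraries were thus negative and all 4 SLBP libraries positive. The difference between the antibodies was -1.54 (exact two-sided permutation p = 0.133 for 2 against 4 libraries, the lowest possible). Over all 7 libraries the contrast averaged -0.16 ± 0.76 (SD, n = 7; exact sign-flip permutation p = 0.609, two-sided, also after adjustment), with 3 negative and 4 positive. Without RBFOX2 replicate 2 it averaged 0.068.

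The highest SLBP peak of MALAT1, 2.40 in replicate 2 at 3468 to 3491 nt, lay inside the highest IgG peak, 1.78 at 3464 to 3527 nt (65268696 to 65268759). Over the IgG peak's nucleotides the mean was 0.61 and -0.37 in RBFOX2 replicates 1 and 2, against 0.76, 2.27, 1.38 and 1.63 in SLBP replicates 1 to 4. The other SLBP libraries had their highest peaks elsewhere, at 1916 to 1946 nt in replicate 1, 6328 to 6368 nt in replicate 3 and 6192 to 6204 nt in replicate 4. The lowest SLBP peak, -1.78 in replicate 1 at 7583 to 7599 nt, lay where all 4 SLBP libraries were below input (-0.61 to -1.78). RBFOX2 had 0.09 and -0.69 there, and IgG -0.0044.

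The RBFOX2 libraries had like profiles on both RNAs. Over steps of 100 nt covered in both, the log2 folds of the RBFOX2 libraries had r = 0.93 (Pearson) and rho = 0.89 (Spearman) on MALAT1 over 42 steps, and r = 0.85 and rho = 0.83 on NEAT1 over 65 steps. On MALAT1 Pearson's r was 0.45 to 0.79 among the SLBP libraries, 0.49 to 0.78 between SLBP and IgG, 0.29 and 0.34 between RBFOX2 and IgG, and -0.22 to 0.21 between RBFOX2 and SLBP. On NEAT1 it was 0.38 to 0.68 among SLBP, 0.44 to 0.64 between SLBP and IgG, 0.49 and 0.77 between RBFOX2 and IgG, and 0.28 to 0.69 between RBFOX2 and SLBP. Steps of 1 RNA share its abundance and base composition and are not replicates, so these values describe the lists and carry no test.

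SLBP libraries at 5 U of RNase I had higher folds on MALAT1 than those at 40 U. The means were 0.61 and 0.56 at 5 U and 0.14 and 0.25 at 40 U, a difference of 0.39 (exact two-sided permutation p = 0.333 for 2 against 2 libraries, the lowest possible; adjusted p = 0.667 over 2 tests). With each list's own median taken off it was 0.99. The share of MALAT1 peaks below input was 14.3% and 18.9% at 5 U, against 46.9% and 41.7% at 40 U. On NEAT1 the amounts overlapped, with 0.71 and 1.01 at 5 U and 1.00 and 0.90 at 40 U (difference -0.09, exact two-sided permutation p = 1 for 2 against 2 libraries). The amounts were used on different replicates, so an effect of the enzyme and other differences between those libraries cannot be told apart.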

How the data were processed

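Peaks were read from the 7 deposited lists, 1 per immunoprecipitation library. The deposited columns hold the authors' −log10 p and log2 fold of immunoprecipitation over paired input for each peak. The lists have no header, so units were read from the values and the lists' naming. Per the submitters' processing notes the build is hg19, and the tools named are SAMtools, Picard, GATK, STAR and cutadapt, without versions. Neither the peak caller nor the method of input normalization is given in the sources read here. Peaks were treated as called per library. Every fold and p of a single peak is the authors' own.

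Titles and the RNase I characteristic gave the groups. Means weight each peak's fold by its covered nucleotides. Where touching peaks were merged, each site took the highest fold of its pieces, also for the share below input. Merged sites were averaged without weights, and a site was enriched if any of its pieces was. Libraries were compared with exact permutation tests, two-sided as the smaller one-sided p doubled; 2 against 4 libraries cannot go below 0.133, nor 2 against 2 below 0.333. Analyses used Python 3.11.15, pandas 2.3.3, NumPy 2.4.6 and SciPy 1.17.1, and the functions were tested on simulated peaks. Depth is unknown, so no fold has an interval of its own. Places were named by a rule (regions enriched in all libraries of an antibody, the highest and lowest peak of each antibody, ranked 1000 nt steps); sites enriched in 1 library, those at a log2 fold of 2 and single steps were added after their values were seen. The members and lists were chosen with earlier results of these data known. No hg19 genome or annotation was used, so exons, motifs under peaks and genes of like pattern were not analysed here.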

Additional observations from a re-analysis of the deposited data

Results flagged for a closer look

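The change along MALAT1 went opposite ways with the antibodies: the first 4000 nt minus the rest was negative in both RBFOX2 libraries and positive in all 4 SLBP libraries, a difference of -1.54 log2 units (exact two-sided permutation p = 0.133 for 2 against 4 libraries, the lowest possible).

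SLBP replicate 4 had a lower share of NEAT1 peaks below input, 3.12% (2 of 64 peaks), than the other SLBP libraries, which had 10.4% to 11.3%, a gap that Dixon's criterion for 4 values marks as far from the rest. Such gaps were looked for in 18 sets of 4 SLBP values, and chance marks about 5% of them.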

How the results depend on the processing

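Of 177 values under alternative settings, 157 kept their direction and side of the threshold, or, for counts, stayed within 1.5 times. Shares of overlapping peaks were among the 157 if they stayed inside an exact binomial interval. That interval treats touching peaks as independent, which they are not. Much of the stability of these 157 was fixed in advance. Tests of 2 against 4 or 2 against 2 libraries, or fewer, cannot go below 0.05, so only their direction could change. Many counts set 0 against 0. No peak reached past an interval, so taking midpoints changed nothing. The 157 include all alternatives of the MALAT1 minus NEAT1 difference (-0.74 to -0.51 without 1 library, exact permutation p = 0.0312 at n = 6). This difference was -0.62 with the median over peaks and -0.52 with touching peaks merged (exact permutation p = 0.0312 for each, n = 7). The 157 also include all alternatives of the first 4000 nt minus the rest of NEAT1. That contrast was 0.50 to 0.62 without 1 library, 0.47 with touching peaks merged and 0.70 with the median over peaks. RBFOX2 minus SLBP on MALAT1 turned to 0.25 with list medians taken off, to 0.034 with SLBP at 40 U only, and ran from -0.34 to 0.014 without 1 library; the positive value came without RBFOX2 replicate 2. With touching peaks merged, RBFOX2 minus SLBP in the share of NEAT1 peaks below input turned to 1.14 percentage points. SLBP 5 U minus 40 U on NEAT1 turned to 0.0098 with merged peaks, 0.047 with the median over peaks and 0.51 with list medians taken off, and ran from -0.24 to 0.062 without 1 library, positive without SLBP replicate 3. The first 4000 nt minus the rest of MALAT1 ran from -0.27 to 0.068, positive without RBFOX2 replicate 2. The cause of these reversals was not tested. Enriched RBFOX2 peaks on NEAT1 averaged 3.5 with touching peaks merged, 44.5 at a log2 fold of 2 and 0.5 with the stricter limits (−log10 p of 10, log2 fold of 4), and on MALAT1 8 at a log2 fold of 2; SLBP averaged 1.5 on NEAT1 and 0.75 on MALAT1 at that fold, so RBFOX2 minus SLBP was 3.5, 43 and 0.5 on NEAT1 and 7.25 on MALAT1. At a log2 fold of 2, 95.0% of the called NEAT1 peaks of RBFOX2 replicate 1 overlapped one of replicate 2, and 75.5% the other way. Both shares count touching peaks separately and are not shares of independent sites. Merged peaks for the paired differences, and the median for the first 4000 nt, were chosen after seeing the data. No paired analysis was possible because same-numbered libraries of different antibodies share only a number and no model was fitted. Read depth is not in the lists, which limits every single fold.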

Other observations

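Of MALAT1, 999 nt (11.5%) were covered by a peak in all 7 lists and 3148 nt (36.2%) in at least 1. Both RBFOX2 lists and no other covered 456 nt of it. Of NEAT1, 1033 nt (4.54%) were covered in all 7 lists and 6952 nt (30.6%) in at least 1, and 558 nt by both RBFOX2 lists alone. The longer RBFOX2 lists had more peaks to place, and the part of list length in these counts was not tested.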
